A study of Mus musculus with 8 samples.

Results

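SR proteins and heterogeneous nuclear ribonucleoproteins (hnRNPs) are the main families of RNA-binding proteins that choose which exons enter an mRNA, and their transcripts were followed here in cultured mouse satellite cells. The members were all genes of the count table whose symbol is Srsf with a number, begins with Hnrnp, or is Ptbp1, Ptbp2 or Ptbp3. This rule found 35 symbols, 1 pseudogene was left out, and 34 members remained of 39017 genes: 11 SR proteins, 20 hnRNPs and 3 polypyrimidine tract-binding (PTB) proteins. Satellite cells, the muscle-resident cells that rebuild fibres after injury, came from diaphragm and abdominal muscle of adult Pax3GFP/+ mice, so every library, controls included, carries the reporter at the Pax3 gene. Cells were seeded at 7500 per 35 mm plate and cultured for 4 days with DMSO (4 libraries) or with 10 µM sal003 (4 libraries), an inhibitor of the dephosphorylation of the translation factor eIF2α. One of the labels gives the dose in mM in place of µM. The labels do not say if replicates are different mice or plates, so p-values measure the spread between these libraries only, which may be technical.

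SR proteins carry RNA recognition motifs and a domain rich in arginine and serine. They bind exonic enhancers, recruit the U1 and U2 particles of the spliceosome and are switched by phosphorylation. Most hnRNPs bind intronic or exonic silencers and oppose them, and PTB proteins, which bind pyrimidine-rich tracts, hold back neuronal and muscle-specific exons in proliferating cells. Many of these genes limit their own level through an exon with an early stop codon that sends the transcript to nonsense-mediated decay. The counts used here are per gene, so they cannot tell such transcripts from those that yield the full protein.

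Library totals lay between 32753929 and 40234107 counts, and all 34 members passed the count filter. DMSO replicate 2 stood apart from the others: it had counts at 14437 genes, against 16561 to 18076 in the remaining 7 libraries, and its Spearman correlation with other DMSO libraries was at most 0.949, while each of the other 7 had a library of its group at 0.978 or more. It was the highest DMSO library at 12 members and the lowest at 11. Of the markers of the labelled cell type, Pax7 was present (65.2 to 80.6 CPM in DMSO, 95.0 to 101 CPM in sal003), as was Myod1 (827 to 1020.3 and 832 to 946 CPM). The 9 markers of satellite cells and myoblasts summed to 6622 to 7726 and 3336 to 3669 CPM. Lower in sal003 without overlap were Des (2660 to 3181 and 1116 to 1209 CPM) and Myog (2363 to 2873 and 788 to 926 CPM). So were Cdh15 (213 to 257 and 108 to 134 CPM) and Itga7 (397 to 492 and 273 to 331 CPM). Pax7 was higher without overlap, and the groups overlapped at Myod1, Pax3, Myf5 and Vcam1. Summed CPM of the other lineages' markers were low: 6 fibro-adipogenic markers gave 0.511 to 6.60 in DMSO and 1.85 to 3.31 in sal003, 4 endothelial markers 0.890 to 4.29 and 2.75 to 6.04, and 3 immune markers 2.11 to 5.58 and 2.16 to 4.56. Dcn, Lum and Ptprc were at 0 in all 8 libraries. The 4 smooth muscle and pericyte markers summed to 1464 to 1605 CPM in DMSO and 393 to 564 CPM in sal003, nearly all of it Acta2, which myoblasts also express.

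The comparison of sal003 with DMSO asks which transcripts differ when eIF2α phosphorylation is maintained. Most splicing factor transcripts were higher in sal003, each by less than 2-fold. Of the 34 members 24 rose and 0 fell (edgeR adjusted p below 0.05), where 10.6% of all 15816 tested genes rose and 12.2% fell, 22.7% in all. The remaining 10 did not pass. At an unadjusted p below 0.05, 27 members were higher and 0 lower, and DESeq2 and limma-voom called 25 and 26 higher and 0 lower. The median log2 fold change was 0.47 over the members and -0.0034 over all tested genes. Among the 24 it ran from 0.27 at Hnrnph1 to 0.91 at Ptbp3, with a median of 0.61. Of the 6536 genes at or above the level of the second lowest member, 20.3% rose and 20.1% fell, with a median of 0.044. All 4 sal003 libraries lay above all 4 DMSO libraries at 21 members, against 13.1% of tested genes, and below them at 0 members, against 13.7%.

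**Figure D1:**
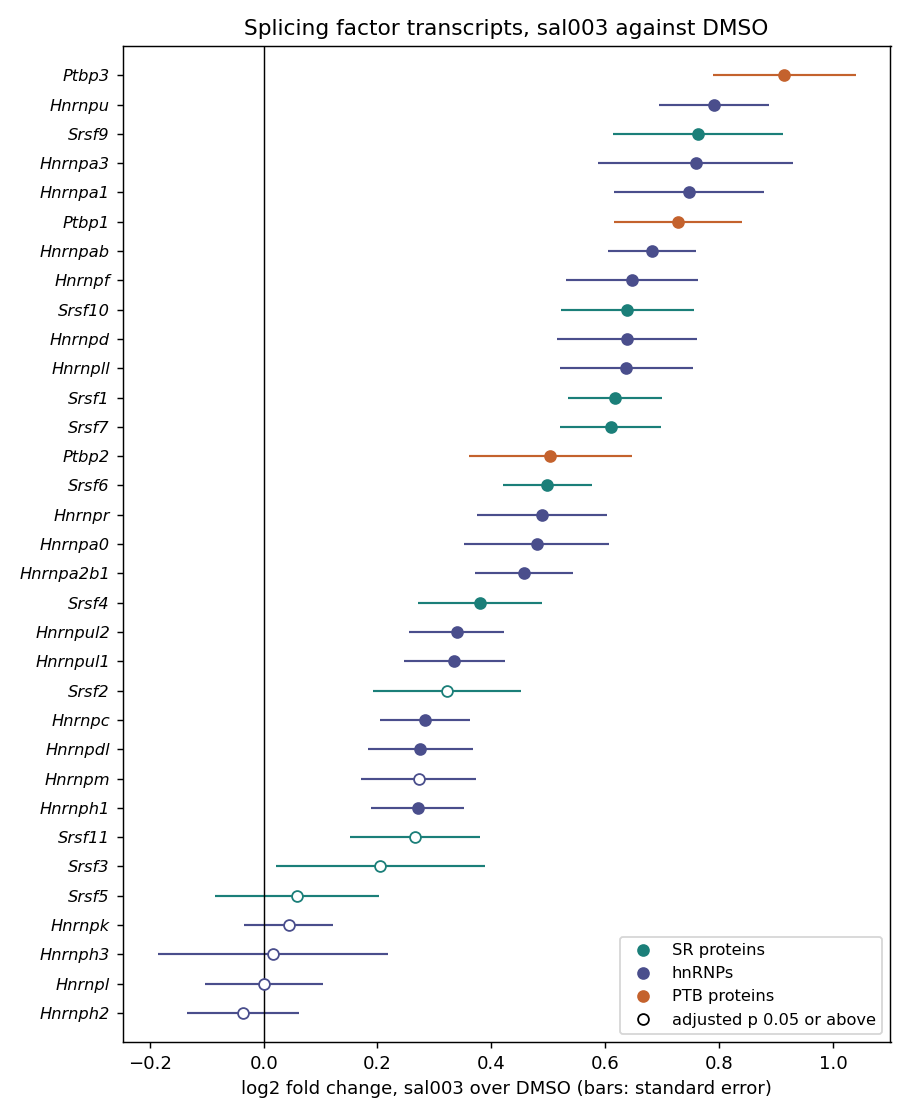
Log2 fold change of sal003 over DMSO for 33 members, with bars for the standard error of the edgeR fit and colours for the class. Filled points passed the adjusted p of 0.05, all 24 of them on the right of 0; Srsf12 (-1.33 ± 1.72) is left out because of its wide error.

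Only Ptbp3 passed against a change of at least 1.5-fold, a test that called 1.68% of all genes higher. Without DMSO replicate 2, 27 members rose and 0 fell (13.4% and 13.6% of tested genes), and the median was 0.45. In bulk RNA a higher level in each cell and a larger share of cells that express more cannot be told apart. The groups also differed in other genes: 8 genes of the cell cycle (Mki67, Top2a, Ccnb1, Cdk1, Bub1b, Mcm5, Mcm6 and Pcna) summed to 1496 to 2025 CPM in DMSO and 3669 to 3887 CPM in sal003. A set of 10 contractile genes (Myl1, Myl4, Actn2, Myh3, Myh8, Tnnt3, Tnnc2, Ttn, Acta1 and Ckm) summed to 51239.6 to 75242 and 14809 to 17019 CPM. Their part in the splicing factor result was not tested.

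Summed over members, the share of a library's counts was 0.643% ± 0.0141 with DMSO and 0.978% ± 0.0253 with sal003 (SD, n = 4). By library, the share was 0.643, 0.648, 0.624 and 0.657% in DMSO replicates 1 to 4 and 1.01, 0.968, 0.954 and 0.978% in sal003 replicates 1 to 4. The hnRNPs made up most of it, 0.491% ± 0.0129 in DMSO and 0.741% ± 0.0218 in sal003. SR proteins took 0.133% ± 0.00996 and 0.201% ± 0.00530, and PTB proteins 0.0189% ± 0.00268 and 0.0356% ± 0.00133. The sal003 share was 1.51, 1.51 and 1.88 times the DMSO share for SR proteins, hnRNPs and PTB proteins, and in each class the groups of libraries did not overlap. These shares are of raw counts and use no scaling of libraries, but they depend on the other genes in the total. Leaving out the 20 genes with most counts, and transcripts of mitochondria and of ribosomal RNA, gave lower ratios. They were 1.42, 1.42 and 1.77 in the same order, and in each class the groups still did not overlap.

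**Figure D2:**
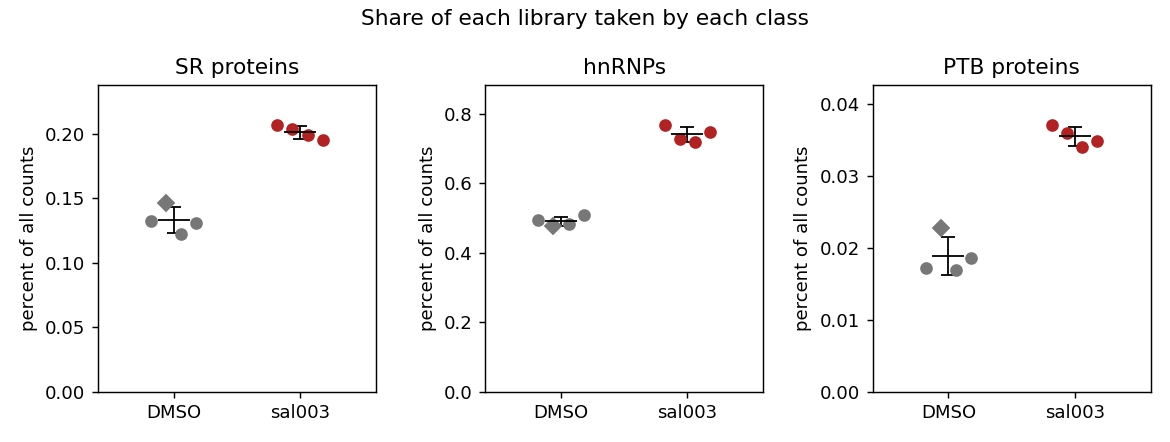
Percent of all counts of each library that fell on SR proteins, hnRNPs and PTB proteins; points are libraries (DMSO replicate 2 as a diamond), lines the mean and SD of 4. In each class all sal003 libraries sit above all DMSO libraries, and DMSO replicate 2 is the highest DMSO library for SR and PTB proteins.

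Most members rose, and the promoters of members were read from RefSeq's windows (GRCm38.p6), of which the 250 bases before each start were used. The part of promoters in the rise was not tested. Windows were listed for 31 of the 34 members, 43 windows in all, and not for Hnrnpll, Hnrnpul2 and Ptbp3. Their median GC content was 68.0%, against 52.4% over 32851 windows. Both strands were searched for the CCAAT box, the E-box CACGTG, the letters GGCGGGAA of an E2F site, the letters CCGGAAG of an ETS site, and the TATA box letters TATAAA. The first 4 of the printed windows belong to members that rose, and the last to Hnrnph2, which did not pass; capitals mark motif matches.
Hnrnpa2b1, chr6:51469895-51470144, minus strand: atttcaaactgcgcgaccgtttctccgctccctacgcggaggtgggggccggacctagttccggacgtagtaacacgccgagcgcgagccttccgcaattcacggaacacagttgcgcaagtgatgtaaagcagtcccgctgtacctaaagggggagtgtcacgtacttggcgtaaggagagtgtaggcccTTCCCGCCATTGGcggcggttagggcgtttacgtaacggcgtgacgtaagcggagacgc
Srsf1, chr11:88047123-88047372, plus strand: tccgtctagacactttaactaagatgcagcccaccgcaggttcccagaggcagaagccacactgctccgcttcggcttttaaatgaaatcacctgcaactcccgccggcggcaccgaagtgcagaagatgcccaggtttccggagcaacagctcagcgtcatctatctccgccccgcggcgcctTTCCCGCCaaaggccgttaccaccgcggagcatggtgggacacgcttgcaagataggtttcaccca
Hnrnpab, chr11:51606882-51607131, minus strand: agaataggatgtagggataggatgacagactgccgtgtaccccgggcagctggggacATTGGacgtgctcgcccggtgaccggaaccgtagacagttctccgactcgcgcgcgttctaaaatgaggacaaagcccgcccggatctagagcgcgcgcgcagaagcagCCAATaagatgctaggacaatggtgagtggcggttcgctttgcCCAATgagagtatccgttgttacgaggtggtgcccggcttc
Ptbp1, chr10:79854182-79854431, plus strand: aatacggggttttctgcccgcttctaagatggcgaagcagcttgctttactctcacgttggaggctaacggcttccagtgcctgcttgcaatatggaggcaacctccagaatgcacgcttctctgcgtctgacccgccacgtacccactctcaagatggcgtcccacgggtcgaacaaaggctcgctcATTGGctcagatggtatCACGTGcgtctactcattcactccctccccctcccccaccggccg
Hnrnph2, chrX:134600929-134601178, plus strand: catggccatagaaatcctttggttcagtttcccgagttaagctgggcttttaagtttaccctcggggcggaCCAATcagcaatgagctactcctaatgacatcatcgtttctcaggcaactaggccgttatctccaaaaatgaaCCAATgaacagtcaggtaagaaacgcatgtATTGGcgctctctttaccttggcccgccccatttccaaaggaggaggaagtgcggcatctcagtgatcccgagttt

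In the printed Hnrnpa2b1 window the reverse complements of GGCGGGAA and CCAAT adjoin each other and end 52 and 47 bases before the start. Another window of this gene holds the same matches, ending 101 and 96 bases before its own start. Srsf1 carries the reverse complement of GGCGGGAA, ending 59 bases before its start. Hnrnpab and Hnrnph2 hold 3 CCAAT matches each, and Ptbp1 holds a CCAAT match beside a CACGTG. Across members, GGCGGGAA was present at 7 of 31 genes (Hnrnpa2b1, Hnrnpf, Hnrnpr, Hnrnpul1, Srsf1, Srsf10 and Srsf4), or 20.9% of their windows, against 1.86% of all windows. Among windows of at least 60% GC the shares were 22.2% and 4.18%. All 7 rose in sal003, where 21 of the 31 members with a window rose. Among all tested genes with a window, GGCGGGAA was present at 6.89% of 1176 that rose and 3.75% of the other 8504. CCAAT was found in 48.8% of member windows and 33.8% of all, CACGTG in 9.30% and 6.02%, CCGGAAG in 20.9% and 6.91%, and TATAAA in 6.98% and 12.4%. Among windows of at least 60% GC, the shares of member and of all windows were 37.0% and 28.7% for CCAAT, 11.1% and 9.32% for CACGTG, 22.2% and 13.0% for CCGGAAG and 7.41% and 2.58% for TATAAA, whose order turned round. Among tested genes that rose and the other tested genes, CCAAT was present at 40.8% and 40.5%, CACGTG at 11.2% and 9.97%, CCGGAAG at 16.9% and 15.4% and TATAAA at 6.97% and 7.94%. The TATAAA matches were at Hnrnpm, Srsf2 and Srsf3, none of which passed the test with all libraries. Without DMSO replicate 2 these 3 genes passed. Windows of 1 gene can overlap, and a match of letters is a description only.

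Of the 11 SR proteins 6 rose and 5 did not pass. Srsf1, the founding member, which favours the use of nearby 5′ splice sites (ENSMUSG00000018379, chromosome 11, 88047373 to 88053755, plus strand of mm10), stood at 225, 245, 239 and 254 CPM in DMSO replicates 1 to 4 and at 364, 375, 337 and 401 CPM in sal003 replicates 1 to 4. The groups were well separated, with a log2 fold change of 0.62 ± 0.08 (standard error; adjusted p from edgeR = 4.51e-05). Srsf7, which also links spliced mRNA to nuclear export (ENSMUSG00000024097, chromosome 17, 80200080 to 80207307, minus strand), had 110.0, 127, 110.0 and 123 CPM in DMSO and 177, 174, 187 and 179 CPM in sal003, with no overlap (0.61 ± 0.09, adjusted p from edgeR = 9.40e-05). Srsf6 (ENSMUSG00000016921, chromosome 2, 162931528 to 162937121, plus strand) had 183, 189, 194 and 196 CPM in DMSO and 269, 281, 254 and 271 CPM in sal003, again without overlap (0.50 ± 0.08, adjusted p from edgeR = 0.000200).

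Srsf10, a family member that represses splicing when it loses its phosphates in heat shock, had 79.9, 87.8, 73.6 and 64.5 CPM in DMSO and 119, 121, 103 and 133 CPM in sal003 (0.64 ± 0.12, adjusted p from edgeR = 0.000731). All sal003 values were above the highest DMSO value, that of replicate 2. Srsf9, a close relative of Srsf1, rose by the largest estimate among SR proteins, from 24.1 ± 3.39 to 40.8 ± 2.83 CPM (SD, n = 4; 0.76 ± 0.15, adjusted p from edgeR = 0.00129). Srsf4 rose by less, from 96.0 ± 10.5 to 125 ± 12.9 CPM (0.38 ± 0.11, adjusted p = 0.0190), and its groups overlapped. It fell short of the threshold in 4 of 8 leave-out fits: adjusted p = 0.0532 without DMSO replicate 3, and 0.0685, 0.0650 and 0.0561 without sal003 replicates 1, 2 and 3. The gene Gm12992 on the opposite strand covers 43.0% of the exon bases of Srsf4, and the strand setting of the counting is not given in the sources used here.

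Srsf2 and Srsf3 turned on a single library. Srsf2, also known as SC35 and concentrated in nuclear speckles, had 225, 344, 208 and 241 CPM in DMSO and 305, 326, 334 and 307 CPM in sal003. Srsf3, the smallest SR protein and an adaptor for mRNA export, had 65.3, 115, 54.0 and 71.1 CPM in DMSO and 86.0, 85.5, 92.8 and 87.8 CPM in sal003. For both genes DMSO replicate 2 was above every sal003 library and the other 3 DMSO libraries were below every sal003 library. With all libraries the estimates were 0.32 ± 0.13 (adjusted p = 0.0950) and 0.21 ± 0.18 (adjusted p = 0.517). Without DMSO replicate 2 both passed, at 0.51 (adjusted p from edgeR = 2.33e-05) and 0.48 (adjusted p = 0.00167). The overlaps of Mettl23 and Mfsd11 with the exon bases of Srsf2, on the other strand, sum to 25.3%.

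Srsf5 had 125, 133, 106 and 91.0 CPM in DMSO and 153, 114, 107 and 99.2 CPM in sal003, with an estimate of 0.06 ± 0.14 (adjusted p = 0.849; estimate ± 1.96 SE, -0.22 to 0.34). The ranges of the groups overlapped. Of the 50-base stretches of the transcripts of Srsf3, Srsf5 and Srsf10, 10%, 10.1% and 10.3% occur in other genes. Srsf11, a divergent member, went from 222 ± 37.9 to 267 ± 18.1 CPM (0.27 ± 0.11, adjusted p = 0.118). Srsf12, a relative of Srsf10, was near the limit of detection and passed the filter on 3 DMSO libraries and 1 sal003 library, with counts of 26, 0, 58 and 48 in DMSO and of 8, 0, 52 and 0 in sal003, and no difference was detectable at this depth (adjusted p = 0.681).

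**Figure D3:**
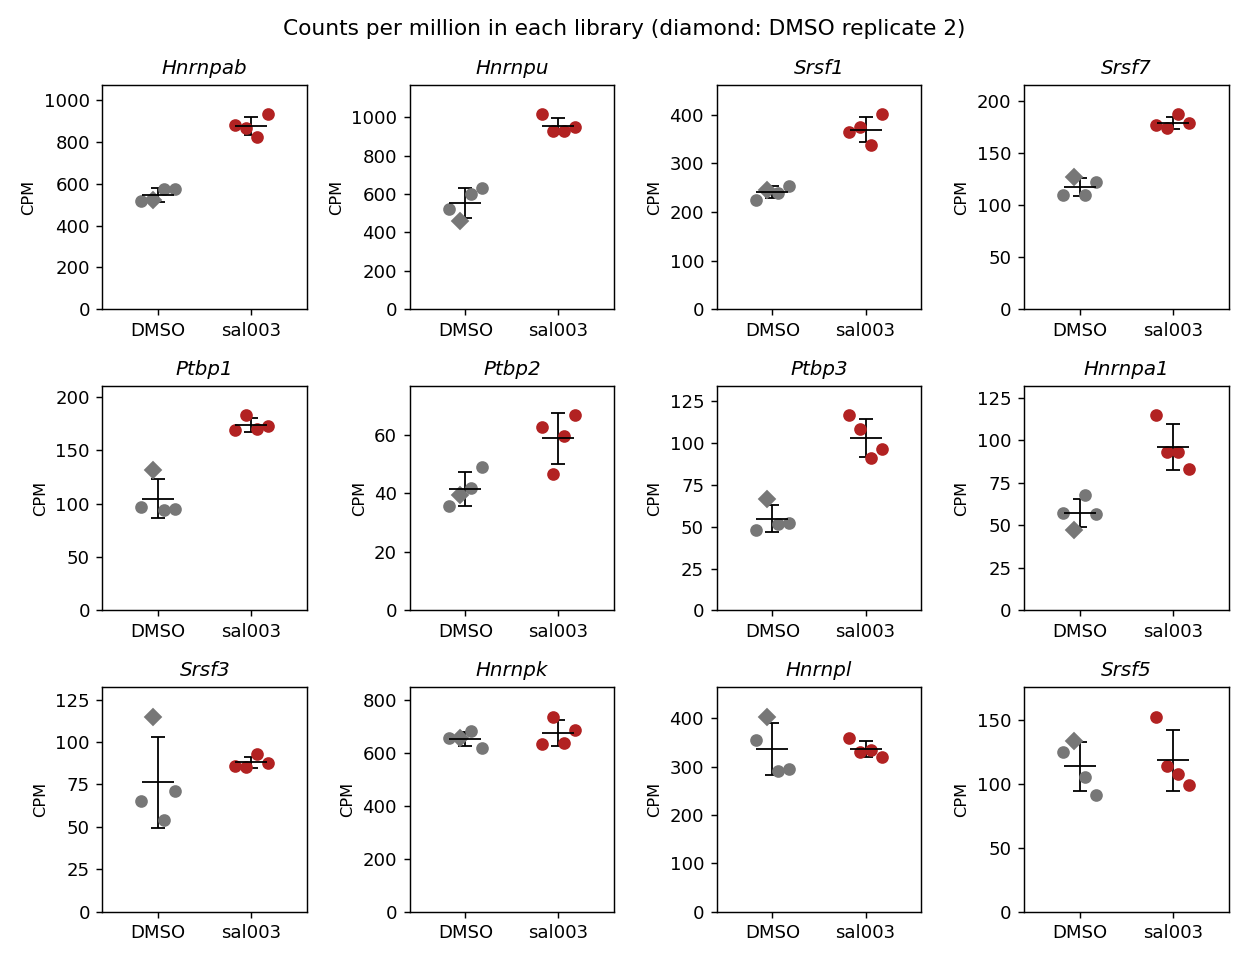
CPM of 12 members in each of 4 DMSO and 4 sal003 libraries; points are libraries, lines the mean and SD, and the diamond is DMSO replicate 2. At Srsf3 the diamond (115 CPM) lies above all sal003 libraries, while at Hnrnpab, Hnrnpu, Srsf1, Srsf7, Ptbp1, Ptbp3 and Hnrnpa1 the groups do not overlap.

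All 3 PTB proteins rose. Ptbp1, which represses muscle and neuronal exons and the inclusion of an exon that keeps Ptbp2 productive (ENSMUSG00000006498, chromosome 10, 79854427 to 79864771, plus strand), stood at 96.6, 132, 94.4 and 95.3 CPM in DMSO and 168, 183, 169 and 172 CPM in sal003. DMSO replicate 2 lay apart from its group but below every sal003 library, and the log2 fold change was 0.73 ± 0.11 (adjusted p from edgeR = 0.000171; 0.87 without that library). Ptbp3, a paralog known from blood cell differentiation (ENSMUSG00000028382, chromosome 4, 59471868 to 59549364, minus strand), had 48.1, 66.5, 51.5 and 52.4 CPM in DMSO and 116, 108, 91.0 and 96.5 CPM in sal003. That was the largest estimate among members, 0.91 ± 0.13 (adjusted p from edgeR = 5.48e-05), a 1.88-fold change.

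Ptbp2, the paralog that takes over from Ptbp1 as neurons form (ENSMUSG00000028134, chromosome 3, 119718742 to 119784466, minus strand), had 35.6, 39.4, 41.8 and 49.2 CPM in DMSO and 62.6, 46.6, 59.5 and 66.7 CPM in sal003. The groups overlapped at the lowest sal003 library, replicate 2, and the highest DMSO library, replicate 4. The log2 fold change was 0.50 ± 0.14 (adjusted p from edgeR = 0.0178), and it missed the threshold when DMSO replicate 1 was left out (adjusted p = 0.0525), or likewise sal003 replicate 1 (0.0586) or 4 (0.0674). Per kilobase of annotated exon, DMSO levels were 22.1 ± 3.84 CPM for Ptbp1, 7.30 ± 1.09 for Ptbp3 and 4.52 ± 0.621 for Ptbp2 (SD, n = 4), so Ptbp1 was the most abundant of the 3 on that scale. Under the same scale they were 36.5 ± 1.37, 13.8 ± 1.52 and 6.41 ± 0.945 in sal003, in the same order. The overlaps of other genes with the exon bases of Ptbp1, all on the opposite strand, sum to 20.7%.

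Of the 20 hnRNPs 15 rose and 5 did not pass. Hnrnpab, an A/B-type protein that also binds single-stranded DNA (ENSMUSG00000020358, chromosome 11, 51600100 to 51606847, minus strand), had the lowest p of all members, with 516, 519.7, 573 and 572 CPM in DMSO and 879, 866, 824 and 931 CPM in sal003. Its log2 fold change was 0.68 ± 0.08 (adjusted p from edgeR = 7.60e-06), and per kilobase it was also the most abundant member, at 196 ± 11.4 CPM in DMSO. The Phykpl gene overlaps 29.1% of its exon bases on the opposite strand. Hnrnpu, the scaffold attachment factor that binds chromatin and nascent RNA (ENSMUSG00000039630, chromosome 1, 178321108 to 178337797, minus strand), had 521, 457, 598 and 629.7 CPM in DMSO and 1016, 927, 928 and 947 CPM in sal003, the largest estimate among hnRNPs (0.79 ± 0.10, adjusted p from edgeR = 1.69e-05). In both genes every sal003 library exceeded the highest DMSO library.

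Hnrnpa1, the classical antagonist of Srsf1 in splice site choice (ENSMUSG00000046434, chromosome 15, 103240432 to 103246692, plus strand), had 57.4, 47.2, 67.7 and 56.7 CPM in DMSO and 115, 93.1, 93.3 and 83.1 CPM in sal003 (0.75 ± 0.13, adjusted p from edgeR = 0.000534). Its relatives moved the same way: Hnrnpa2b1 went from 605 ± 66.7 to 831 ± 17.4 CPM (0.46 ± 0.09), Hnrnpa3 from 54.2 ± 14.1 to 91.8 ± 12.3 CPM (0.76 ± 0.17) and Hnrnpa0 from 96.7 ± 19.4 to 135 ± 10.2 CPM (0.48 ± 0.13; SD, n = 4). The levels of Hnrnpa1 and Hnrnpa3 are uncertain, because 28.2% and 26.9% of the 50-base stretches of their transcripts occur in other genes, 19 and 41 of them pseudogenes. How reads with several alignments were counted is not given in the sources used here.

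Hnrnpf, which binds runs of G, had 178, 276, 214 and 255 CPM in DMSO and 377, 351, 341 and 376 CPM in sal003 (ENSMUSG00000042079, chromosome 6, 117900324 to 117925622, plus strand; 0.65 ± 0.12, adjusted p from edgeR = 0.000647), with no overlap although DMSO spread widely. It shares 43.2% of its 50-base stretches with other genes, more than any other member. The overlaps of 4933440N22Rik and Gm43863 with its exon bases sum to 26.5%, on the opposite strand, and Gm43863 is absent from the count table. The F and H subfamily has 3 other members, whose difference from Hnrnpf was not tested. Hnrnph1, at 317, 343, 343 and 358 CPM in DMSO and 444, 379, 392 and 427 CPM in sal003, rose without overlap by 0.27 ± 0.08 on the log2 scale (adjusted p = 0.0243), while Hnrnph2 (-0.04 ± 0.10, adjusted p = 0.865) and Hnrnph3 (0.02 ± 0.20, adjusted p = 0.975) did not pass. Hnrnph2 shares 15.9% of its 50-base stretches with other genes. Hnrnph1 missed the threshold when DMSO replicate 1 was left out (adjusted p = 0.0551), or likewise sal003 replicate 1 (0.101) or 4 (0.0728).

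Hnrnpd, the AU-rich element binding protein AUF1, went from 157 ± 25.9 to 244 ± 28.9 CPM (0.64 ± 0.12, adjusted p from edgeR = 0.00118), and its relative Hnrnpdl had 239, 293, 298 and 314 CPM in DMSO and 355, 352, 354 and 323 CPM in sal003. Hnrnpdl was the member just inside the threshold (0.28 ± 0.09, adjusted p = 0.0418), and was lost without DMSO replicate 1 or 3 or sal003 replicate 1, 2 or 3 (adjusted p from 0.0553 to 0.114). Hnrnpm was just outside it, with 317, 259, 289 and 275 CPM in DMSO and 373, 285, 338 and 380.1 CPM in sal003 (0.27 ± 0.10, adjusted p = 0.0674), and passed without DMSO replicate 1 (0.0351), DMSO replicate 2 (0.0482) or sal003 replicate 2 (0.0192). Hnrnpdl, Hnrnph1 and Hnrnpm each had a fitted change of 1.21-fold. March2 lies over 14.7% of the exon bases of Hnrnpm on the same strand.

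The other hnRNPs that rose were Hnrnpll (0.64 ± 0.12), known for the switch of CD45 exons in lymphocytes, Hnrnpr (0.49 ± 0.11), the U-like Hnrnpul2 (0.34 ± 0.08) and Hnrnpul1 (0.34 ± 0.09), and Hnrnpc (0.28 ± 0.08), which coats uridine tracts of nascent RNA. Their adjusted p ran from 0.000738 to 0.0160, and that of Hnrnpc was 0.0593 without sal003 replicate 4. At 2 of the abundant hnRNPs the groups overlapped and the test was not passed. Hnrnpk, a poly(C)-binding protein, had 655, 655, 681 and 618 CPM in DMSO and 633, 737, 636 and 686 CPM in sal003 (0.04 ± 0.08, adjusted p = 0.779; estimate ± 1.96 SE, -0.11 to 0.20). Hnrnpl, which binds CA repeats, had 355, 404, 290.2 and 295 CPM in DMSO and 359, 331, 335 and 319.9 CPM in sal003 (0.00 ± 0.10, adjusted p = 0.999; -0.20 to 0.20). The sign of the Hnrnpl estimate changed with the scaling. Both intervals lie below the point estimates of Hnrnpab and Hnrnpu, but a difference between these genes was not tested. Of the 50-base stretches of Hnrnpk 14.5% occur in other genes, and Rmi1 lies over 5.1% of its exon bases on the opposite strand.

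Members that share little sequence were counted apart. Of the 17 members with under 5% of their 50-base stretches in other genes and under 5% of their exon bases under another gene, 13 rose and 0 fell, with a median log2 fold change of 0.48. Among the 17 others 11 rose and 0 fell, with a median of 0.38. This split was chosen after the values were seen.

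Whether paralogs shifted against each other was tested with the ratio of their counts within a library, which needs no scaling. None of 10 pairs passed after Benjamini-Hochberg adjustment, and with 4 libraries against 4 the exact permutation test cannot give a p below 0.0286. After adjustment over 10 pairs a lone pair at that limit could not pass, so the adjusted result cannot decide on a shift of a single pair. The ratio of Hnrnpll to Hnrnpl was 0.159, 0.112, 0.170 and 0.190 in DMSO and 0.210, 0.231, 0.240 and 0.282 in sal003. It was the 1 pair without overlap, with a difference of 0.63 on the log2 scale (two-sided exact permutation p = 0.0286, adjusted p = 0.214, higher in 4 of 4 sal003 libraries). The ratio of Ptbp2 to Ptbp1 was 0.369, 0.299, 0.442 and 0.516 in DMSO and 0.372, 0.255, 0.352 and 0.387 in sal003 (difference -0.24, exact permutation p = 0.343, adjusted p = 0.571). Differences were 0.18 for Ptbp3 over Ptbp1, -0.30 for Hnrnph2 over Hnrnph1, -0.37 for Hnrnpdl over Hnrnpd and 0.35 for Srsf7 over Srsf3, with exact permutation p from 0.0571 to 0.143. The other 4 pairs, Hnrnpul2 over Hnrnpul1, Hnrnpa3 over Hnrnpa1, Srsf9 over Srsf1 and Srsf6 over Srsf4, differed by at most 0.16 (exact permutation p of 0.400 or more).

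**Figure D4:**
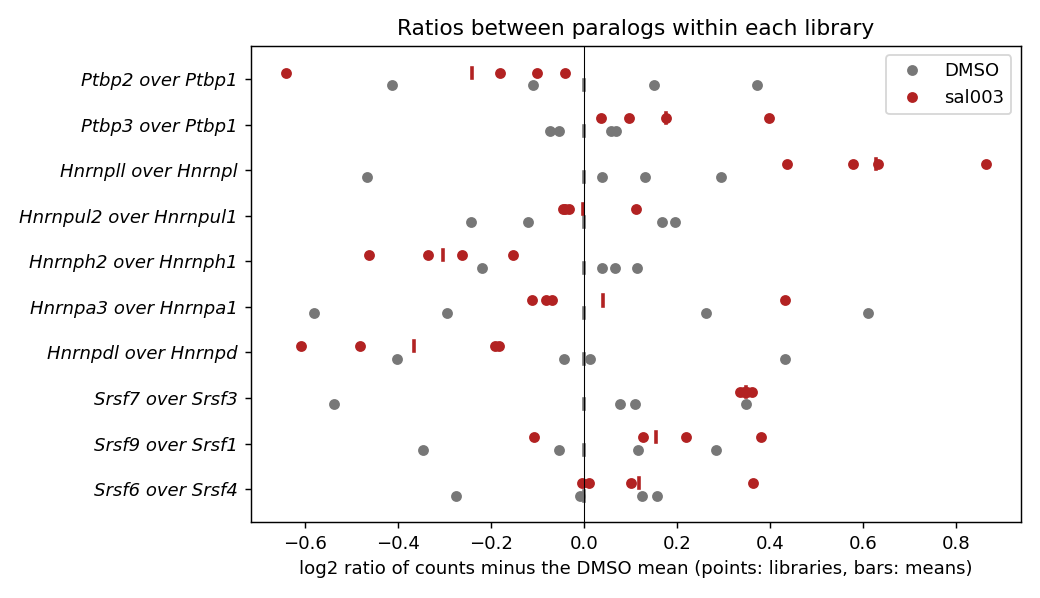
Log2 ratio of the counts of 2 paralogs in each library, minus the DMSO mean of the pair; points are 4 DMSO and 4 sal003 libraries and bars the means. For Hnrnpll over Hnrnpl all sal003 libraries lie to the right of all DMSO libraries (0.63 on average); the groups of the other 9 pairs overlap.

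The partners of these proteins were read from 7 lists, 112 tested genes, of which 39 rose and 7 fell, with a median log2 fold change of 0.26. Of all 15816 tested genes 10.6% rose and 12.2% fell. Of genes at or above the level of the second lowest member, 20.3% rose and 20.1% fell. Enzymes and carriers that act on SR proteins were split: of 11, 3 rose and 3 fell (median 0.10). Srpk1, the widely expressed SR protein kinase, had 123, 121, 123 and 113 CPM in DMSO and 181, 191, 176 and 165 CPM in sal003 (0.57 ± 0.09, adjusted p from edgeR = 0.000158). Srpk3, the muscle-specific kinase of that family, moved the other way, with 46.5, 47.7, 58.3 and 43.7 CPM in DMSO and 5.88, 13.1, 7.25 and 13.2 CPM in sal003 (-2.32 ± 0.25, adjusted p from edgeR = 5.16e-06). Neither gene's groups overlapped. The contractile genes were lower in the same libraries, and their part in the Srpk3 value was not tested. Srpk2 fell as well (-0.53 ± 0.14, adjusted p = 0.0120), although DMSO replicate 2, at 59.9 CPM, lay within the sal003 range. Dyrk1a fell without overlap (-0.45 ± 0.09, adjusted p = 0.00148). Prpf4b and Tnpo3, the importer of SR proteins, rose (0.43 ± 0.09 and 0.31 ± 0.10). The CDC-like kinases Clk1, Clk2, Clk3 and Clk4 had estimates from -0.18 to 0.19, and none passed.

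Of 20 SR-related and exon junction proteins 9 rose and 0 fell (median 0.31; 0 lower also at an unadjusted p below 0.05, with DESeq2 and with limma-voom). They included the splicing coactivator Srrm1, from 237 ± 27.5 to 356 ± 26.1 CPM (0.59 ± 0.10), the exon enhancer reader Tra2b (0.54 ± 0.10) and the export factor Alyref (0.54 ± 0.12). Among 22 tested hnRNP proteins and relatives whose symbols do not begin with Hnrnp, 12 rose and 2 fell (median 0.38). Sfpq, a paraspeckle protein that binds PTB, went from 498 ± 13.4 to 747 ± 21.1 CPM (0.58 ± 0.07, adjusted p from edgeR = 1.66e-05), Syncrip, known as hnRNP Q, rose by 0.62 ± 0.09 on the log2 scale, and Pcbp2, known as hnRNP E2, by 0.67 ± 0.10. The 2 that fell were Raly, a relative of Hnrnpc (-0.33 ± 0.09, adjusted p = 0.0125, and 0.0593 without sal003 replicate 1), and the cold-inducible Cirbp (-0.92 ± 0.25, adjusted p = 0.0131).

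Core spliceosome genes were read from 3 of the lists. Of 16 genes for recognition of the 3′ splice site and the U2 particle 8 rose and 0 fell (median 0.35; 0 lower also unadjusted and with both other tools), among them Sf3a3 (0.53 ± 0.11), the branch point binding Sf1 (0.36 ± 0.07) and Snrpa1 (0.65 ± 0.14). Of 20 genes of U5, the tri-snRNP and the catalytic step 6 rose, with Eftud2 (0.48 ± 0.08) and Prpf4 (0.63 ± 0.17) first, and 1 fell (median 0.15). That gene was Prpf19, the ubiquitin ligase that names its spliceosomal complex, with 178, 221, 188 and 181 CPM in DMSO and 97.1, 129, 113 and 113 CPM in sal003 (-0.76 ± 0.11, adjusted p from edgeR = 6.69e-05). Of 11 genes of U1 and the Sm ring 1 rose, Snrpf (0.81 ± 0.20), and 1 fell, the imprinted Snrpn (-0.91 ± 0.29, adjusted p = 0.0360), with a median of 0.14. These counts are near the 10.6% and 12.2% of all tested genes that rose and fell. The call on Snrpn was lost without DMSO replicate 1 or 4 or sal003 replicate 1, 2 or 4 (adjusted p from 0.0512 to 0.116). Of 12 genes of nonsense-mediated decay, the pathway that removes the stop-codon isoforms of SR proteins, 0 passed in edgeR, DESeq2 or limma-voom. At an unadjusted p below 0.05, 2 were higher and 0 lower, and the median was 0.12. Of all tested genes 22.7% were called. Of genes at or above the level of the second lowest member, 20.3% rose and 20.1% fell, and of the 12 only Upf3a was below that level. Whether the list differs from these shares was not tested.

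**Figure D5:**
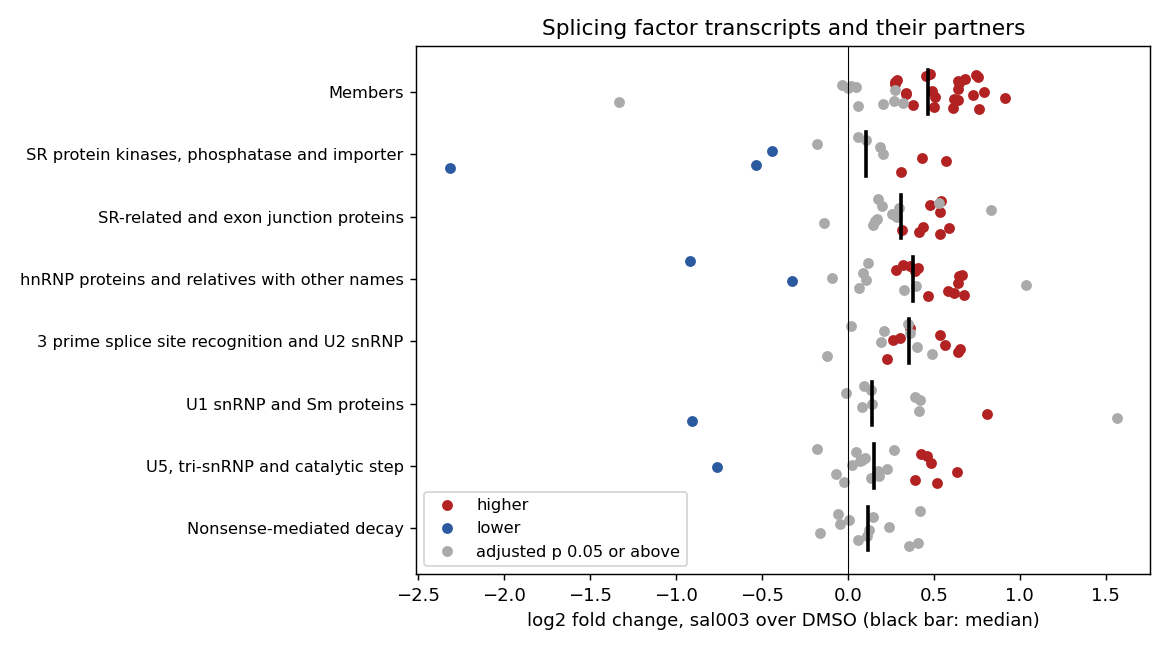
Log2 fold change of sal003 over DMSO for each tested gene of the 34 members and of 7 partner lists; colours give the call and black bars the median of each list. The member median (0.47) lies to the right of those of the 7 lists, and Srpk3 (-2.32) is the leftmost point.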

How the data were processed

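RNA was measured in 8 libraries. Per the labels' protocols, total RNA was depleted of ribosomal and mitochondrial RNA and sequenced from stranded libraries. The authors deposited whole-number counts per gene, not normalized; genome build mm10 with STAR 2.3.0e, Trimmomatic 0.32 and, as counter, featureCounts 1.4.4 are named per the submitters' processing notes. Most low counts were even (75.6% to 83.4% of counts from 1 to 20), so halved counts were an alternative. Precision from depth covers counting error only. All 8 columns matched samples by name, and no replicate pair agreed within counting noise (chi-square per degree of freedom of at least 24.3).

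In R 4.3.3, genes were kept with filterByExpr (minimum count 10, minimum total 15), scaled by TMM and fitted with the robust quasi-likelihood model of edgeR 4.0.16, with no covariate beside the treatment. Gene tests were two-sided and adjusted by Benjamini-Hochberg over all 15816 tested genes, with a threshold of 0.05. CPM are TMM-scaled, and the SE is the absolute log2 fold change divided by the square root of F. Ratios of paralogs had 0.5 added to each count and a two-sided exact permutation test (scipy 1.17.1), adjusted over 10 pairs. Coordinates, exon lengths and overlaps come from GENCODE M21 (mm10), which held 96.6% of identifiers. The fit was tested on simulated data. Alternatives were DESeq2 1.42.0, limma-voom (limma 3.58.1), other scalings, filters and thresholds, a replicate block, halved counts, removal of the most abundant genes and leaving out each library.

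Protein features were not analysed here. One list of cell type markers is not reported here. Members, partner lists, ratio pairs and motifs were chosen with earlier results of these data known. Values in every library are given for the PTB genes, the 10 members of lowest p and the members nearest the threshold, and of each partner list up to 3 genes of lowest p past the threshold are named, with any that moved the other way. Prpf4b, Tnpo3, the Clk genes and the other members shown by library were chosen after their values were seen.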

Additional observations from a re-analysis of the deposited data

Results flagged for a closer look

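In 6 of 68 groups of 4 libraries, 1 library lay far from the other 3 of its condition by Dixon's ratio, where chance gives about 1 in 20. DMSO replicate 2 was the highest at Ptbp1 (132 CPM against 94.4 to 96.6) and the lowest at Hnrnpd (118 CPM against 167 to 172). The sal003 replicate 4 was the highest at Hnrnpul1 (354 CPM against 324 to 328) and Hnrnpc (441 CPM against 407 to 408) and the lowest at Hnrnpdl (323 CPM against 352 to 355). At Srsf12, sal003 replicate 3 had 1.30 CPM, against 0 to 0.196 in the others.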

How the results depend on the processing

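Over the alternatives, 0 members fell, and 20 to 27 rose in fits that left out 1 library. The count of members that rose was 17 at an adjusted p of 0.01 and 1 against a 1.5-fold change; under the others it was 23 to 26. The median log2 fold change stayed between 0.44 and 0.49. Of the 24 members that rose, 19 kept the call in every fit other than those 2 stricter tests. Same-numbered libraries did not deviate together (correlations of -0.00531 to 0.0354; 2 of 4 DMSO and 1 of 4 sal003 libraries correlated best with their own number), and with the replicate number as a block 23 members rose, in a fit that called 1660 genes higher and 1770 lower in all; under the block Hnrnph1 (0.0508), Hnrnpdl (0.0617) and Snrpn (0.0608) had an adjusted p above 0.05 and Srsf2 (0.0435) one below it. Hnrnpdl also missed with the stricter filter of 10 CPM in 4 libraries (0.0540). Estimates near 0 changed sign: without 1 library, Hnrnpk ranged from -0.0017 to 0.077, Srsf5 from -0.083 to 0.16, Hnrnph2 from -0.067 to 0.0027, Hnrnph3 from -0.082 to 0.21 and Hnrnpl from -0.053 to 0.11. Hnrnph3 was -0.024 with the stricter filter, and Hnrnpl was -0.0040 with DESeq2 size factors, -0.011 with upper-quartile scaling, -0.040 with the stricter filter, -0.0039 with DESeq2 and -0.0026 with halved counts; the cause was not tested. No paralog ratio passed under any alternative, and without 1 library (smallest p 0.0571) or within replicate numbers (0.125) none could. Among members, counting depth was lowest at Srsf12.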
